A study of Mus musculus with 2 samples.

Results

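Triglyceride assembly was followed in the liver through the 9 genes *Gpam*, *Agpat2*, *Agpat3*, *Lpin1*, *Lpin2*, *Lpin3*, *Dgat1*, *Dgat2* and *Mogat1*, found by their symbols among 53241 distinct symbols in the liver files of a control and an iFIRKO library. iFIRKO mice lose the insulin receptor in adipocytes through a Cre recombinase that tamoxifen switches on and that the adiponectin promoter drives (Adipoq-CreERT2; Insr flox/flox). The control is labelled WT, whereas the study's methods describe control animals as IR flox/flox. Both groups were male, were 7 weeks old when tamoxifen began (100 mg/kg on 5 days), and gave liver 3 days after the final dose. Each group had 1 library, and the sources used here do not say whether it came from a single mouse or a pool, so no value below has a replicate check and no p-value was computed.

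A hepatocyte builds triglyceride on a glycerol backbone. In the glycerol phosphate route, a first acyltransferase loads a fatty acid onto glycerol 3-phosphate to give lysophosphatidate, a second adds another to give phosphatidate, a lipin removes the phosphate to leave diacylglycerol, and a diacylglycerol acyltransferase adds the last fatty acid. A shorter route enters at monoacylglycerol, which a monoacylglycerol acyltransferase turns into diacylglycerol. In the liver the product is stored in lipid droplets or exported in very low density lipoprotein, and insulin is known to favour several of these steps.

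Values are normalized reads, the deposited log2 values returned to the linear scale. Taking the most frequent low value in a library as 1 read pair put the depth at an estimated 42276584 reads for control and 41304952 for iFIRKO. Fold changes are iFIRKO over control with a pseudocount of 4.18 normalized reads, and 13400 genes that reached 41.8 normalized reads (a CPM of 1, reads scaled to the library total) in 1 or both libraries were set against a 1.5-fold threshold and are called tested below. Intervals are 95% exact Clopper-Pearson intervals of the plain ratio on the estimated read pairs; they hold counting error alone, and so compare libraries rather than genotypes. The liver label was borne out by hepatocyte genes, with albumin (*Alb*) at 4167150 and 3944160 normalized reads in control and iFIRKO. The 8 hepatocyte markers were not level between the libraries, although their median log2 fold change was -0.06. Log2 fold changes ran from -0.94 (*Apoa1*) to 0.29 (*Ttr*), with 6 markers below 0 and 2 above. *Apoa1* was the 1 past the threshold, downwards, and 0 of the 8 intervals held no change. *Insr*, deleted in adipocytes alone, had 4246 and 3692 normalized reads (log2 fold change -0.20, interval -0.29 to -0.11). Of the adipocyte markers, *Lep* and *Retn* were listed at 0 in both libraries, and *Adipoq* and *Plin1* were listed at 0 in control and at 2.01 normalized reads in iFIRKO, and *Cfd* at 0 and 8.05. The 6 Kupffer cell and macrophage markers were all lower in iFIRKO (median log2 fold change -0.57) and the 4 erythroid markers all higher (median 1.04). Their part in the results was not tested, and in such bulk tissue fewer cells of a type and less RNA per cell cannot be told apart.

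Of the 9 genes, *Gpam* and *Mogat1* exceeded 1.5-fold upwards in the iFIRKO liver, and 0 exceeded it downwards. Over all tested genes 4.46% were more than 1.5-fold higher and 7.28% more than 1.5-fold lower. The median log2 fold change of the 9 genes was 0.19, beside 0.01 over all tested genes, and 7 of the 9 had a log2 fold change above 0, as did 51.3% of all tested genes. *Mogat1* reached the expression minimum in the iFIRKO library alone, so that it had to differ to be tested. With the minimum required in both libraries 8 genes were left, of which *Gpam* was the 1 past the threshold. Of all 12765 genes tested that way, 3.42% were more than 1.5-fold higher and 5.57% more than 1.5-fold lower. Together the 9 genes had 56946 normalized reads in control against 66724 in iFIRKO, 0.136% and 0.160% of all normalized reads. Most of that difference of 9778 normalized reads came from abundant genes with small folds, *Agpat2* with 2600.2 more, *Dgat2* with 2516 more and *Agpat3* with 1736 more, together with 2453 more of *Gpam*.

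**Figure D1:**
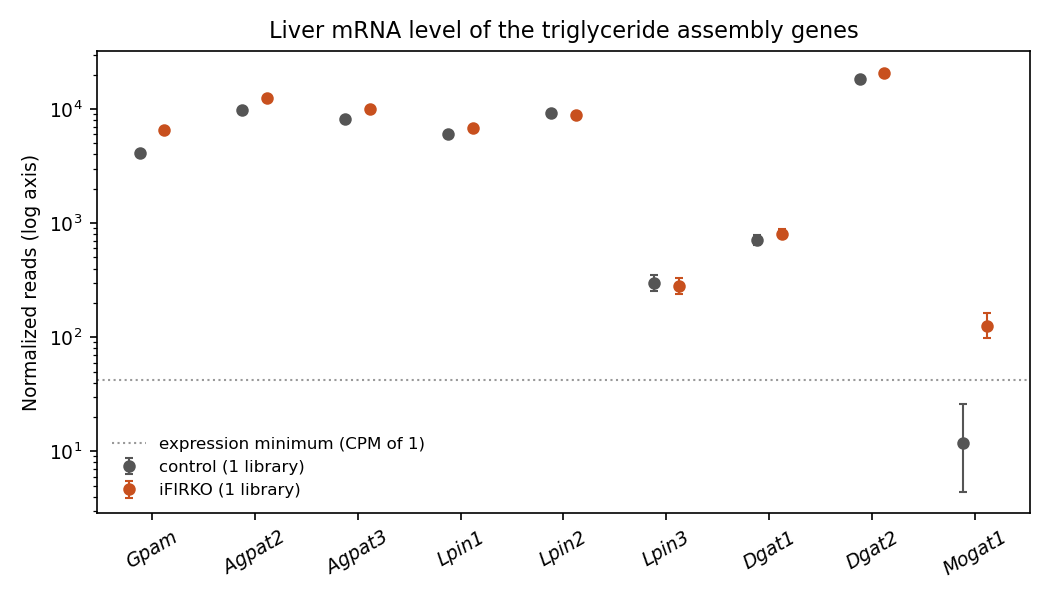
Normalized reads of each gene (log axis) in the control library (grey) and the iFIRKO library (orange), 1 library each, with 95% exact Poisson counting intervals and the expression minimum as a dotted line. *Mogat1* lies below the minimum in control and above it in iFIRKO, while *Gpam* goes from 4124 to 6577 and the points of the lipins lie nearly level.

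*Gpam* encodes the mitochondrial glycerol-3-phosphate acyltransferase, which carries out the committed step of the glycerol phosphate route and competes with fatty acid oxidation for acyl-CoA. On GRCm38 it spans 55067268 to 55127238 of chromosome 19, reverse strand. *Gpam* stood at 4124 normalized reads in control against 6577 in iFIRKO (log2 fold change 0.67, interval 0.59 to 0.75.) On the linear scale this was 1.59-fold, and the lower end of the interval, 1.51-fold, lay just above the threshold. That holds for the deposited scaling. Other scalings multiplied the iFIRKO values by 0.992 to 0.994, about as much as this margin, so the lower end cannot be placed clearly above 1.5-fold. Of all tested genes 3.42% had a larger log2 fold change. *Gpam* is therefore the one abundant member whose difference passed the threshold, and it passed it narrowly.

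RefSeq places 2 transcription starts in *Gpam*. The bases before each are shown because *Gpam* is one of the genes past the threshold, with motif matches in capitals, read 5′ to 3′ on the reverse strand of GRCm38.p6. The upstream start is preceded by chr19:55127239-55127488 and the downstream start by chr19:55099478-55099727.
Gpam, upstream start: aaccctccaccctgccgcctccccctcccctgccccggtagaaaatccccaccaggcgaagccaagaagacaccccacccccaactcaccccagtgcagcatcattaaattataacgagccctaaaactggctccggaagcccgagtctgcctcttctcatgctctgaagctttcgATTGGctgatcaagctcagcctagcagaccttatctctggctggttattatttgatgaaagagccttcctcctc
Gpam, downstream start: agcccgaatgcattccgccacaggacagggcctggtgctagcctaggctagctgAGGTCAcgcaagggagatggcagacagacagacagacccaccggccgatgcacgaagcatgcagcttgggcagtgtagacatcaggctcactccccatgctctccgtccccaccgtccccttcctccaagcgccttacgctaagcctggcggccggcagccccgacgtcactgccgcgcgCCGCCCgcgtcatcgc
In the upstream stretch the capitals mark a CCAAT box on the opposite strand, 74 to 70 bases before the start. In the downstream stretch they mark AGGTCA, the hexamer that many nuclear receptors bind, 196 to 191 bases before the start, and a GC box (GGGCGG) on the opposite strand, 16 to 11 bases before it. The deposited values give 1 number per gene, so the use of either start could not be read from them.

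The second acylation was measured through *Agpat2* and *Agpat3*, which both turn lysophosphatidate into phosphatidate. *Agpat2*, whose loss causes lipodystrophy, stood at 9905 normalized reads in control against 12505 in iFIRKO (log2 fold change 0.34, interval 0.28 to 0.39). *Agpat3*, known for a preference for polyunsaturated fatty acids, had 8214 and 9950.0 normalized reads (log2 fold change 0.28, interval 0.22 to 0.34). Both were higher in iFIRKO by more than counting error and below the threshold, and their intervals overlapped each other. Summed, they had 18119 and 22455 normalized reads (log2 fold change 0.31, interval 0.27 to 0.35). *Agpat2* held 54.7% of the summed reads in control and 55.7% in iFIRKO, with overlapping intervals (53.6% to 55.7%, and 54.8% to 56.6%). *Agpat2* lies on chromosome 2 (26593057 to 26604417) and *Agpat3* on chromosome 10 (78269178 to 78352489), both on the reverse strand.

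The lipins, phosphatidate phosphatases of the third step, differed from each other. *Lpin1*, mutated in the fatty liver dystrophy mouse and also known as a nuclear coactivator of fatty acid oxidation genes, stood at 6049.6 normalized reads in control against 6799 in iFIRKO (log2 fold change 0.17, interval 0.10 to 0.24). *Lpin2*, an abundant lipin of the liver, had 9304 and 8837 normalized reads (log2 fold change -0.07, interval -0.13 to -0.01). The intervals of *Lpin1* and *Lpin2* did not overlap, so that the folds of these genes differed by more than counting error, though neither came near 1.5-fold. *Lpin3* was at 300.2 and 281.6 normalized reads, a log2 difference of -0.09 whose interval ran from -0.43 to 0.25, so no difference was detectable at this depth.

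As a family the lipins were level, summing to 15654 normalized reads in control and 15918 in iFIRKO (log2 fold change 0.02, interval -0.02 to 0.07). Within that sum the share of *Lpin1* was 38.6% in control (interval 37.6% to 39.7%) and 42.7% in iFIRKO (41.6% to 43.8%). The share of *Lpin2* was 59.4% in control (58.3% to 60.5%) and 55.5% in iFIRKO (54.4% to 56.6%), and *Lpin3* held 1.92% and 1.77%. The reads of the phosphatase step therefore were divided differently between *Lpin2* and *Lpin1* in these libraries, while the difference of their sum lay within counting error. *Lpin1* lies on the reverse strand of chromosome 12 (16535669 to 16610966), *Lpin2* on the forward strand of chromosome 17 (71182560 to 71249817) and *Lpin3* on the forward strand of chromosome 2 (160880670 to 160906002).

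The last acylation is shared by *Dgat1* and *Dgat2*, enzymes unrelated in sequence that both turn diacylglycerol into triglyceride. *Dgat2*, tied to newly made fatty acids, was the most abundant of the 9 genes, with 18322 normalized reads in control against 20838 in iFIRKO (log2 fold change 0.19, interval 0.15 to 0.23). *Dgat1* had 715 and 811 normalized reads, and the interval of its log2 fold change (0.18), from -0.03 to 0.39, holds no change. Nearly all reads of this pair came from *Dgat2*, 96.2% in control (interval 95.8% to 96.6%) and 96.3% in iFIRKO (95.9% to 96.6%), and the balance of the pair did not differ beyond counting error. *Dgat1* lies on the reverse strand of chromosome 15 (76502015 to 76511953) and *Dgat2* on the reverse strand of chromosome 7 (99153658 to 99182719).

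*Mogat1* encodes a monoacylglycerol acyltransferase of the same family as *Dgat2*. It is known to be scarce in lean mouse liver and more abundant in fatty liver. Control held 11.9 normalized reads of it, about 6 read pairs, and iFIRKO 126, about 63 read pairs. The log2 fold change was 3.02 with the pseudocount and 3.40 as a plain ratio, with an interval from 2.21 to 4.91. The direction was clear of counting error while the size was not well fixed, since the plain ratio of 10.6-fold had an interval from 4.62-fold to 30.1-fold. Of the 13400 tested genes, 3 had a larger log2 fold change, *Gm26712*, *Gm43802* and *Cyp2c53-ps*, named after their values were seen. *Mogat1* and these 3 genes all lay below the expression minimum in control. They had to differ to be tested, so the rank does not measure how unusual *Mogat1* is. In spite of its fold, *Mogat1* remained the lowest of the 9 in normalized reads, and its 114 additional normalized reads compare with 2516 for *Dgat2*.

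On GRCm38 the gene spans 78510991 to 78538173 of chromosome 1, forward strand. Its exons share 200 bases, 12.8% of their length, with exons of *BC035947* on the opposite strand, which was listed at 0 in control and at 11.0 normalized reads in iFIRKO. No source used here says whether counting used strand, so reads of these genes in the shared stretch cannot be told apart. The stretch before the RefSeq start of *Mogat1* is shown because it was the member with the largest fold, up to the first base that GENCODE M21 places in an exon, chr1:78510810-78510990 on the forward strand of GRCm38.p6.
Mogat1: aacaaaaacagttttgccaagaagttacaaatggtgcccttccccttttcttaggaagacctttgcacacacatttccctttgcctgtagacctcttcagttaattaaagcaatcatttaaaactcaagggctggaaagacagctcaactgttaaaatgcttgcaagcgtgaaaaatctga
This stretch has no capitals because none of the motifs searched matched in the 250 bases before that start.

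The motifs were searched on both strands in the 250 bases before each start, for the 7 members (11 starts) that the RefSeq table holds. *Dgat1* and *Dgat2* were not among them. The E-box CACGTG was found before 1 start of *Lpin2* and in 6.02% of all 32851 promoters of that length. The sterol regulatory element TCACNCCAC was found before none of the 11 starts and in 1.05% of all promoters. AGGTCA was found before a start of *Gpam* and that of *Lpin1* (14.0% of all promoters), the FOXO element TGTTTAC before 1 start of *Lpin2* (3.17%), and the glucocorticoid receptor hexamer AGAACA before starts of *Lpin1*, *Lpin2* and *Lpin3* (16.1%). CCAAT was found before starts of *Gpam* and *Lpin2* (33.8%), the GC box before starts of *Gpam*, *Agpat2*, *Lpin2* and *Lpin3* (32.7%), and the TATA box TATAAA before none (12.4%). The letters were counted as they stand, also where matches overlap, as the GC boxes of *Agpat2* do. A match is a description of the letters, and nothing was measured at these stretches here.

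**Figure D2:**
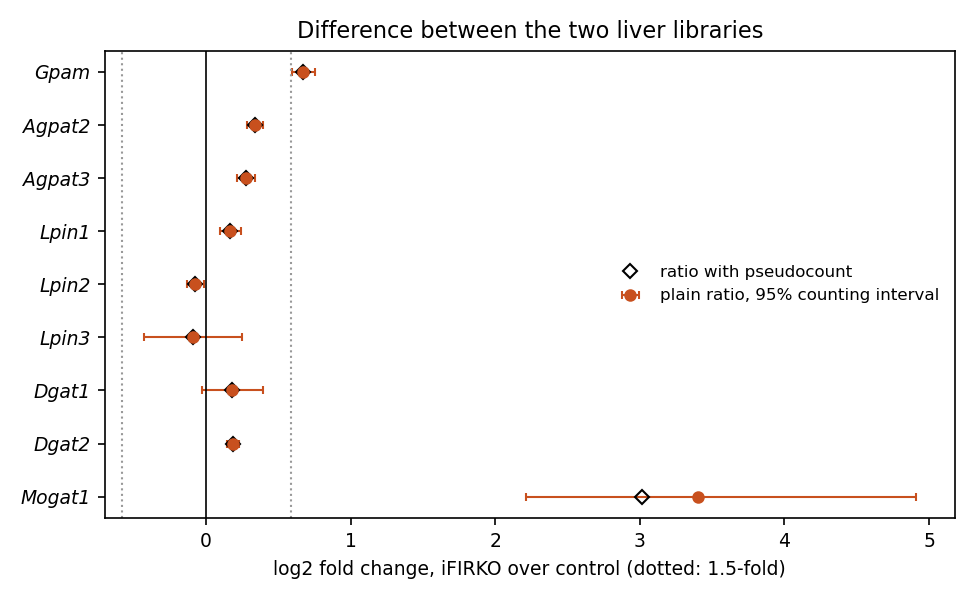
Log2 fold change of iFIRKO over control for the 9 genes, as the plain ratio with its 95% counting interval (orange) and with the pseudocount (open diamonds); dotted lines mark 1.5-fold. *Gpam* and *Mogat1* lie past the upper line, with the interval of *Mogat1* the widest, and the intervals of *Lpin3* and *Dgat1* hold 0.

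Levels were compared between genes per kilobase of the longest annotated coding transcript. In the control library *Dgat2* stood highest, at 8100 normalized reads per kilobase, followed by *Agpat2* at 6652, *Lpin2* at 1650, *Agpat3* at 1374, *Lpin1* at 1084, *Gpam* at 668, *Dgat1* at 379, *Lpin3* at 86.5 and *Mogat1* at 9.69. The counting intervals of neighbours in this order did not overlap in the control library. In the iFIRKO library *Agpat3* (1664 normalized reads per kilobase) and *Lpin2* (1567) changed places, and so did *Mogat1* (103, interval 79.4 to 132) and *Lpin3* (81.1, interval 68.3 to 95.9), whose intervals overlapped. *Gpam* came closer to *Lpin1*, with *Lpin1* at 1.62 times its level per kilobase in control and 1.14 times in iFIRKO. *Dgat2* exceeded *Dgat1* per kilobase by 21.4-fold in control and 21.5-fold in iFIRKO. *Agpat2* exceeded *Agpat3* by 4.84-fold and 5.05-fold, more than in reads (54.7% and 55.7% of their sum), because the transcript of *Agpat3* is longer (5980 bases against 1489). These levels depend on which transcript a liver uses, which the files do not show.

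**Figure D3:**
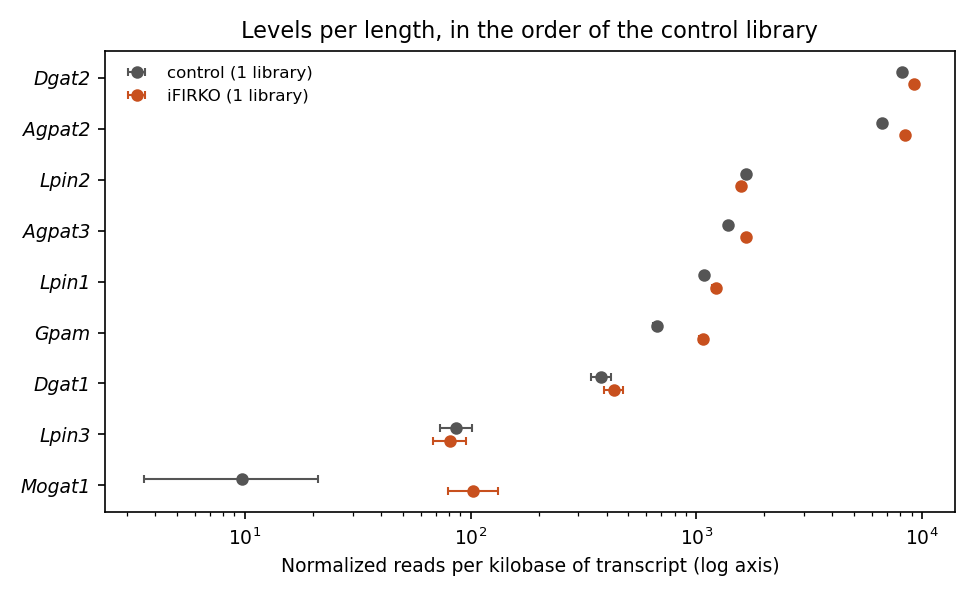
Normalized reads per kilobase of the longest coding transcript (log axis) in control (grey) and iFIRKO (orange), with 95% exact Poisson counting intervals, ordered by the control library. *Dgat2* and *Agpat2* lead in both libraries, and *Mogat1* moves from 9.69 to 103, level with *Lpin3*.

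Reads that near-identical genes could share were looked for in the annotated transcripts. None of the stretches of 50 bases in the longest coding transcript of each gene occurred, in the same direction, in a transcript of another gene. Matches to the opposite strand of transcripts were not searched. *Agpat2* shares 64 exonic bases with *Egfl7* on the opposite strand (785 and 661 normalized reads), and *Agpat3* shares 16 with *Gm40709*, which was listed at 0 in both libraries. Against all tested genes, 96.4% had a lower mean level than *Agpat2*, 98.0% than *Dgat2*, 55.1% than *Dgat1*, 31.7% than *Lpin3* and 8.90% than *Mogat1*.

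**Figure D4:**
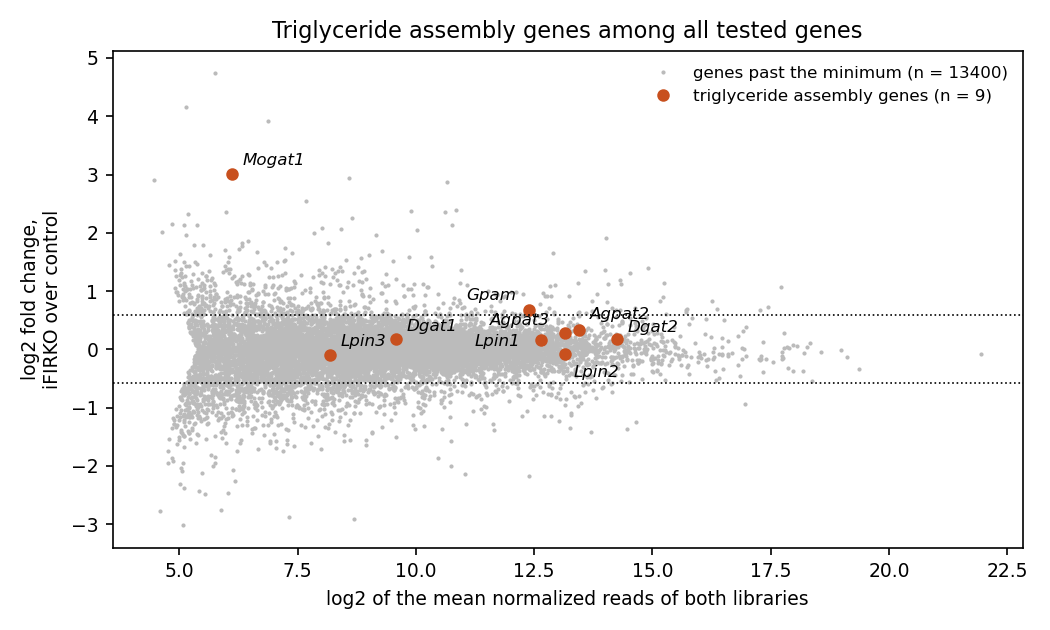
Log2 fold change of iFIRKO over control against the log2 mean level of both libraries for the 13400 tested genes (grey) and the 9 triglyceride assembly genes (orange), with dotted lines at 1.5-fold. *Mogat1*, which reached the minimum in iFIRKO alone and so had to differ to be shown, lies near the low end of expression. Its fold was exceeded by 3 genes. *Gpam* lies just past the upper line among abundant genes.

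The genes around these steps were described through 8 lists with 53 genes in the files. The counts past the threshold below stand beside 4.46% higher and 7.28% lower over all tested genes. Of the 5 tested genes on the list of glycerol 3-phosphate supply, 2 were past the threshold upwards and 0 downwards (median log2 fold change 0.17), and of these 2 *Gpd1* makes glycerol 3-phosphate and *Gpd2* uses it. *Gpd1*, the cytosolic dehydrogenase that makes glycerol 3-phosphate from a glycolytic intermediate, stood at 12451 normalized reads in control against 28428 in iFIRKO (log2 fold change 1.19, interval 1.15 to 1.23). *Gpd2*, its mitochondrial counterpart, which oxidises glycerol 3-phosphate, had 1288 and 2228 normalized reads (log2 fold change 0.79, interval 0.65 to 0.93). *Aqp9*, the channel through which hepatocytes take up glycerol, had 11960 and 11670 normalized reads and an interval from -0.09 to 0.02.

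Of 12 tested genes of fatty acid uptake and activation, *Cd36*, a fatty acid transporter, was the 1 past the threshold, with 2635 normalized reads in control and 4955 in iFIRKO (log2 fold change 0.91, interval 0.81 to 1.01). *Slc27a4*, an acyl-CoA synthetase of the fatty acid transport family, had a log2 fold change of 0.51 and *Fabp1*, the liver fatty acid binding protein, 0.50. *Slc27a2*, an abundant member of the transport family, had 38571 and 38494 normalized reads, with an interval from -0.03 to 0.03. Over the list the median log2 fold change was 0.07. Above 0 lay 8 of the 12, 6 of them by more than counting error, and 4 lay below 0, 3 of them by more than counting error. These 3 lower genes were *Acsl4* (-0.35, interval -0.47 to -0.22) and *Acsl3* (-0.13, interval -0.25 to -0.0024), acyl-CoA synthetases, and *Slc27a5* (-0.25, interval -0.28 to -0.22), the family member that also activates bile acids.

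Of 6 tested acyltransferases of the first and second step beyond the members, 0 were past the threshold in either direction, and their median log2 fold change was 0.06. *Gpat4*, the main glycerol-3-phosphate acyltransferase of the endoplasmic reticulum, had 4632 and 5470.0 normalized reads (log2 fold change 0.24, interval 0.16 to 0.32). This interval lay below that of *Gpam*, which carries out the same reaction at mitochondria. *Lclat1*, an acyltransferase of lysophospholipids, had a log2 fold change of 0.26. All 5 genes of other phosphatidate phosphatases and of the phosphatase complex that activates lipins had a log2 fold change below 0. So did 6525 of the 13400 tested genes. Of the 5, 0 were past the threshold, and their median was -0.13. Among them were *Plpp1* (-0.54, interval -0.78 to -0.30), a lipid phosphate phosphatase, *Plpp3* (-0.13) and *Ctdnep1* (-0.18), the catalytic part of the lipin-activating phosphatase. The intervals of *Plpp2* (-0.03, interval -0.24 to 0.17) and *Cnep1r1* (-0.06, interval -0.28 to 0.15) hold no change.

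Of the other final-step acyltransferases, *Mogat2*, which the intestine uses, stood at 25.9 normalized reads in control against 21.8 in iFIRKO, under the minimum in both. *Dgat2l6* and *Awat1* were listed at 0 in both libraries, and *Tmem68* (0.06) and *Awat2* (0.10) were not past the threshold (median 0.08 over these 2 tested genes). In the list of droplet formation, *Fitm1*, which binds diacylglycerol and triglyceride as droplets form, had 459 and 1060.0 normalized reads (log2 fold change 1.20, interval 0.98 to 1.44). *Fitm2*, its relative, had a log2 fold change of 0.52 (interval 0.40 to 0.64), and *Bscl2*, which encodes seipin, 0.24. *Tmem159* went the other way, with 88.4 and 64.4 normalized reads (log2 fold change -0.43), and its interval, from -1.17 to 0.21, holds no change. *Fitm1* was the 1 of the 4 tested past the threshold, and their median log2 fold change was 0.38.

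Phosphatidate and diacylglycerol also feed phospholipid synthesis. There *Chpt1*, which makes phosphatidylcholine from diacylglycerol, had 5474 and 8969 normalized reads (log2 fold change 0.71, interval 0.64 to 0.78), the 1 of 4 tested genes past the threshold (median 0.09). *Cds2*, which draws phosphatidate into the inositol and cardiolipin branch, had 4692 and 3634 normalized reads (log2 fold change -0.37, interval -0.46 to -0.28).

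Of 8 transcriptional regulators of lipid genes, 1 was past the threshold upwards and 0 downwards, and the median log2 fold change was -0.21. Below 0 lay 6 of the 8, of which 4 did so by more than counting error. Over all tested genes 4.46% were more than 1.5-fold higher and 7.28% more than 1.5-fold lower, and 6525 of 13400 lay below 0. *Pparg*, which drives fat storage genes in adipocytes and in fatty liver, stood at 358 normalized reads in control against 677 in iFIRKO (log2 fold change 0.91, interval 0.65 to 1.19). *Cidec*, a droplet protein on the adipocyte marker list that fatty liver is also known to express, had 17.9 and 108 normalized reads (log2 fold change 2.35, interval 1.57 to 3.81), beside the other 5 adipocyte markers at 0 in control and at 0 to 8.05 normalized reads in iFIRKO; their part in it was not tested. *Srebf1*, the insulin-responsive regulator of lipogenesis known to act on *Gpam*, had 12113 and 10720.5 normalized reads (log2 fold change -0.18, interval -0.23 to -0.12), and *Mlxipl*, which encodes the glucose-responsive factor ChREBP, had a log2 fold change of -0.44. In the iFIRKO library the mRNA of *Srebf1* and *Mlxipl* was lower and that of *Pparg* higher. The part of these regulators in the level of *Gpam* was not tested. Their protein and its activity were not measured here.

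**Figure D5:**
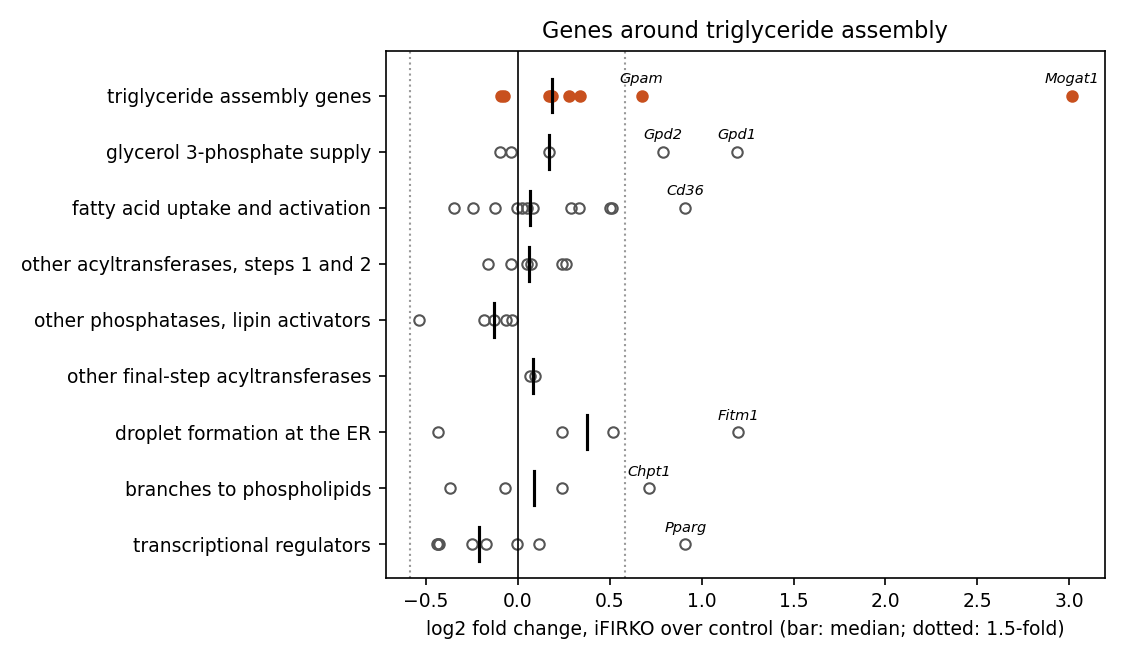
Log2 fold change of iFIRKO over control for tested genes of each list, 1 point per gene, with the list's median as a bar, dotted lines at 1.5-fold and the genes past them named. Each list has from 0 to 2 genes past the upper line and 0 past the lower one. Over all tested genes 4.46% were past the upper line and 7.28% past the lower one. The 5 phosphatase genes all lie below 0, and the counting intervals of 2 of them hold no change.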

How the data were processed

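Liver total RNA was made into stranded mRNA libraries and sequenced on an Illumina NovaSeq instrument, 1 library per group. Each deposited file lists 53342 gene rows with a log2 normalized read count made by the authors, with scaled counts of 1 or less listed at 0. The submitters' processing notes name the build mm10; the aligner, counter and normalization are not given in the sources used here. Among values under 50 normalized reads, 45.2% (control) and 46.7% (iFIRKO) came out as whole read pairs to within 0.01 pairs, so depths and intervals are estimates. Annotation was GENCODE M21 on GRCm38, which held 93.3% of the symbols. Values were returned to the linear scale and given a pseudocount of a CPM of 0.1.

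The 9 genes and all lists were chosen with earlier results of these data known. Named genes are the 9 members. From the tested genes of each other list come the 2 highest in level and the 2 with the largest absolute log2 fold change. Markers are named only where they touch a result. *Adipoq*, *Plin1*, *Lep*, *Retn*, *Cfd*, *Slc27a5*, *Acsl3*, *Acsl4*, *Plpp2*, *Cnep1r1*, *Mogat2*, *Dgat2l6*, *Awat1* and *Tmem159* were named after their values were seen. A list is described by counts and its median. Other marker lists gave medians of -0.06 (hepatocyte), 0.23 (stellate), -0.59 (endothelial) and -0.32 (cholangiocyte), and 1 gene was tested in each of the adipocyte (2.35) and lymphocyte (-2.46) lists. Calls and intervals were tested on simulated libraries. These were drawn as whole read pairs with the counting error that the intervals assume and without variation between mice. They check the calculation and cannot show how reliable a call from 1 library per group is. Scripts ran in Python 3.11.15 with scipy 1.17.1, pandas 2.3.3, numpy 2.4.6 and matplotlib 3.10.9.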

Additional observations from a re-analysis of the deposited data

How the results depend on the processing

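The count of genes more than 1.5-fold higher was 2 in the reported setting and 1 in each of 4 alternatives. It was 1 (*Gpam*) with the minimum in both libraries and with a minimum CPM of 5. It was also 1 (*Gpam*) with that minimum in both libraries, which was chosen after seeing the data. *Mogat1* is not tested in these settings. Over all genes tested in them, in that order, 3.42%, 2.84% and 2.10% were higher. The count was 1 (*Mogat1*) with a fold of 2, which 1.56% of all tested genes exceeded upwards. The count of lower genes was 0 in every alternative run. The median log2 fold change of the 9 genes stayed within the interval of *Dgat2*. Of 87 single values under the alternatives, 86 stayed inside their counting interval and 0 changed sign. The exception was *Mogat1*, at 1.64 with a pseudocount of a CPM of 1, which by construction shrinks low genes. Settings that alter only the minimum, or that sum duplicated symbols, cannot change the fold of a tested member. Their values are among the 86, so only the pseudocount and scaling settings could have moved a fold. *Gpam* lay between 0.66 and 0.67. Other scalings moved the median of all genes by at most 0.01. Over all genes, 597 were higher and 976 lower of 13400 as reported. The counts were 1960 and 2620 of 21768 with no minimum, and 288 and 440 of 10145 with a minimum CPM of 5. Of 13400 genes again, they were 371 and 576 with a pseudocount of a CPM of 1, and 209 and 267 with a fold of 2. Per kilobase, the share of *Lpin3* among the lipins was 3.07% in control and 2.83% in iFIRKO, since its transcript is shorter. No paired analysis was possible because neither control nor iFIRKO has a replicate. Depth limits *Mogat1*, *Lpin3* and *Dgat1* most, and variation between mice is not known from these libraries.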
